A study of Mus musculus with 3 samples.

Results

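The replication-dependent histone genes of mouse blastocysts were followed through the exit from embryonic dormancy. Members were the genes whose deposited symbol began with Hist1h, Hist2h, Hist3h or Hist4h, which held for 25 of the 31510 genes in the tables. They comprised 6 linker histone H1 genes, 8 H2A, 8 H2B, 2 H3 and 1 H4. The rule used symbols and no measured value, but it was set with earlier results of these data known.

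The mothers were CD-1 mice aged 2 months, ovariectomized on day 4 of pregnancy and given 2 mg of progesterone per mouse daily on days 5 to 7, so that implantation was delayed in all 3 states. Dormant blastocysts were flushed from the uterus on day 8 without estradiol (E2). Reactivating and reactivated blastocysts came from mothers that had also received E2 on day 7, and were taken 6 h and 12 h after that injection. More than 3000 blastocysts were pooled for each of the 3 libraries, 1 per state, which were sequenced as ribosomal-RNA-depleted total RNA in 50 bp single-end reads. A pool mixes trophectoderm, epiblast and primitive endoderm. With 1 library per state the differences had no replicate check, so that no SD, test or p-value is given. Intervals are 95% intervals for counting error only, exact for counts and ratios and Wilson for shares, since the reads carry no molecular identifiers and may repeat a molecule.

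Replication-dependent histone genes supply the histones that package newly copied DNA, and in cycling cells their mRNA accumulates in S phase. Core histones H2A, H2B, H3 and H4 form the nucleosome, and H1 binds the linker DNA between nucleosomes. Most of the genes lie in clusters and have no intron. Their mRNA usually ends in a stem-loop in place of a poly(A) tail, which the stem-loop binding protein Slbp holds during processing, export and translation. Libraries made from ribosomal-RNA-depleted total RNA keep such messages.

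The 3′ stem-loop was read in the transcripts of GENCODE M21 (GRCm38), because it is typical of replication-dependent histone genes and does not rest on their names. The pattern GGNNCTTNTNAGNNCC, searched on the transcript strand, occurred in 10 of the 19 members with an M21 transcript, against 136 of 21901 protein-coding genes (0.621%). Another 7 of the 19 had transcript models that ended within 1 base of the stop codon, so that the search had no 3′ sequence to read. Of the others, Hist1h1a had 48 bases after the stop codon and Hist2h2be 2192, and neither held the pattern. The stem-loop lay 40 bases past the stop codon in Hist1h1e, 41 in Hist3h2a and 58 in Hist2h2aa1. The 48 bases of Hist1h1a may therefore end before or within a stem-loop, so that the search cannot show its absence there. A match gives the sequence and not where the message ends. The models ran 840 bases past the stem-loop in Hist1h1c, 4884 in Hist1h1d, 1153 in Hist1h1e and 1643 in Hist3h2a. The pattern also occurred in the testis gene Hist1h1t. The windows below cover at most 30 bases in the 3′ UTR, and capitals mark the stem-loop. They are shown for H1, H2A and H2B members that the results turn on and for 2 H4 genes that lack a deposited symbol and are treated separately.
Hist1h1c: ccaaaaGGCTCTTTTCAGAGCCaccactcc
Hist1h1e: cccaaaGGCTCTTTTCAGAGCCacccacaa
Hist2h2ac: caaaaaGGCTCTTTTTAGAGCCaccaaatc
Hist3h2a: accaaaGGCTCTTTTCAGAGCCacccacaa
Hist1h2bb: cccaaaGGCTCTTTTAAGAGCCacccacac
Hist1h2bg: cccaaaGGCTCTTTTCAGAGCCacccatac
Hist1h4d: accaaaGGCCCTTTTCAGGGCCactacctt
Hist1h4n: actaaaGGCCCTTTTCAGGGCCatccaatt
Their positions on GRCm38 were chr13:23739506-23739535 (plus strand) for Hist1h1c, chr13:23621774-23621803 (minus) for Hist1h1e and chr3:96220410-96220439 (minus) for Hist2h2ac. Those of Hist3h2a and Hist1h2bb were chr11:58955166-58955195 (plus) and chr13:23747197-23747226 (plus). Hist1h2bg had its window at chr13:23571837-23571866 (plus), Hist1h4d at chr13:23581944-23581973 (plus) and Hist1h4n at chr13:21831790-21831819 (minus). All 10 matching members carried the stem GGCTC paired with GAGCC. In the H4 genes shown the stem letters were GGCCC and GGGCC.

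Promoters were taken from RefSeq (GRCm38.p6) as the 250 bases before each gene's start, and 20 of the 25 members had one. Searched on both strands, CCAAT was present in 20 of these 20, against 33.8% of 32851 promoters of the same length, and TATAAA in 11 against 12.4%. The octamer ATTTGCAT, a motif long known in H2B promoters, was present in 7 of the 20 against 1.60%, and 4 of the 7 were H2B genes out of 6. AAACACA, known as the H1 box, occurred in 5 of the 6 H1 promoters against 6.25%. None of the matches overlapped a match to another motif. The 3 promoters below belong to the members with the most reads among the H1 and H2B genes that were higher after E2, and to the H1 gene that was lower. Capitals mark the matches on either strand.
Hist1h1a: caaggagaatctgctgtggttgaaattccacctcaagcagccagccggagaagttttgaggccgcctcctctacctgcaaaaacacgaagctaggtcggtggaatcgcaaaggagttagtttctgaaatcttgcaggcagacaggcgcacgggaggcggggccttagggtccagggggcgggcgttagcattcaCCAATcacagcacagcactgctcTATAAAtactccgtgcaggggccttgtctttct
Hist1h1c: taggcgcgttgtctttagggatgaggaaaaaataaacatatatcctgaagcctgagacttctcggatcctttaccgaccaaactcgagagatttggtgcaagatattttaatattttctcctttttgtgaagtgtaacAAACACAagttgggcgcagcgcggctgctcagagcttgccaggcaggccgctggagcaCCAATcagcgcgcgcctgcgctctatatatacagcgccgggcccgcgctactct
Hist1h2bg: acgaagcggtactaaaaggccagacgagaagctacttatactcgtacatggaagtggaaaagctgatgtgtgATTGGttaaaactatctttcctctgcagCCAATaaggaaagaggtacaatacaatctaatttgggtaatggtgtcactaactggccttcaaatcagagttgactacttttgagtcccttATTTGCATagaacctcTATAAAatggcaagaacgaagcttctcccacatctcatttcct
Hist1h1a (chr13:23763418-23763667, plus strand) held CCAAT and TATAAA, starting 56 and 33 bases before the start, and no AAACACA. Hist1h1c (chr13:23738557-23738806, plus) held AAACACA at 112 bases and CCAAT at 54. Hist1h2bg (chr13:23571150-23571399, plus) held 2 CCAAT matches at 178 and 150 bases, the octamer at 59 and TATAAA at 43. Motif content was not compared between members that were higher and other members. Hist1h2bb, which passed the size rule in no comparison, also held the octamer, CCAAT and TATAAA.

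The tables held 9298675, 10364607 and 12941447 exon reads for dormant, reactivating and reactivated embryos. Over the 25 members there were 4997, 9091 and 9844 exon reads, or 0.0537%, 0.0877% and 0.0761% of the exon reads (Wilson 95% intervals 0.0523% to 0.0552%, 0.0859% to 0.0895% and 0.0746% to 0.0776%). RPKM is the deposited level, exon reads scaled to exon length and library size. Trophectoderm, epiblast and primitive endoderm markers were all present, with 14 of 14 at 1 RPKM or more in a library. Of the 4 red blood cell markers Hba-a1 and Hba-a2 had 0 reads in every library, and Hbb-bs and Hbb-bt had 1 to 4 reads. None of the 4 uterine stroma markers reached 1 RPKM.

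A member was called higher or lower when log2((RPKM + 1)/(RPKM + 1)) was at least 1 in size and the higher of both libraries had 1 RPKM or more. The pseudocount of 1 understates the change of low genes. Because the RNA was pooled in bulk, fewer cells with a transcript and less of it per cell cannot be told apart. One member, Hist2h2aa1, had 0 exon reads in all 3 libraries, and 22 of the 25 reached 1 RPKM in at least 1 library. The deposited row of Hist2h2aa1 lies on the minus strand, but M21 places the gene on the plus strand. In addition, 89.4% of the 50-base words of its transcript occurred in other genes, so that its 0 is uncertain.

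At 6 h after E2 the members' summed level was 1.68 times that of dormant embryos, with 716 RPKM in the reactivating library and 426 RPKM in the dormant one. Linker histone H1 and core histone H2B made up nearly all of the difference, while H2A was level. Of the 21 members that reached the minimum, 3 were higher (Hist1h1a, Hist1h2bg and Hist2h2ab), against 2.68% of all genes tested. Only Hist1h2aa, at 3 reads in the reactivating library and 15 in the dormant one, was lower, against 3.07% of all genes. With upper-quartile or median-ratio scaling the split was 3 higher and 2 lower, and with CPM 3 and 0. The median log2 difference was 0.25 over the members and 0.060 over all genes tested.

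At 12 h the summed RPKM stood at the same height, 716 RPKM in the reactivated library against 426 RPKM in the dormant one (1.68 times). Reads per total, however, were 1.64 times the dormant value at 6 h (1.58 to 1.70) and 1.47 times at 12 h (1.42 to 1.52). Directly against reactivating embryos they were at 0.895 times (0.870 to 0.921), so that the 2 measures differed. More members had moved at 12 h and in both directions. Of 22 members that reached the minimum, 8 were higher (Hist1h1a, Hist1h2bg, Hist1h2bm, Hist1h2bh, the shared H2B row described below, Hist1h2af, Hist1h2ai and Hist2h2ab), against 5.27% of all genes tested. The 4 lower ones were Hist1h1c, Hist3h2a, Hist2h2be and Hist1h2aa, against 7.66% of all genes. Over the 15 members with an M21 transcript and at most 50% of its 50-base words in other genes, 3 were higher and 4 lower. Without Hist1h1a, the member with the most reads, the log2 ratio of the sums was 0.41 in place of 0.75. Reactivated set directly against reactivating embryos gave 1 higher member, Hist1h2af (3.82% of all genes), and 4 lower ones, Hist1h1c, Hist1h1t, Hist3h2a and Hist2h2be (7.63% of all genes), among 21. That split was 4 higher and 3 lower with median-ratio scaling, and 2 and 4 with upper-quartile scaling or CPM. The median over all genes was -0.13 in that last comparison and -0.075 for reactivated against dormant, and the members' medians were -0.043 and 0.23. The 2 comparisons with dormant embryos share that library, and so do not count as independent of each other.

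**Figure D1:**
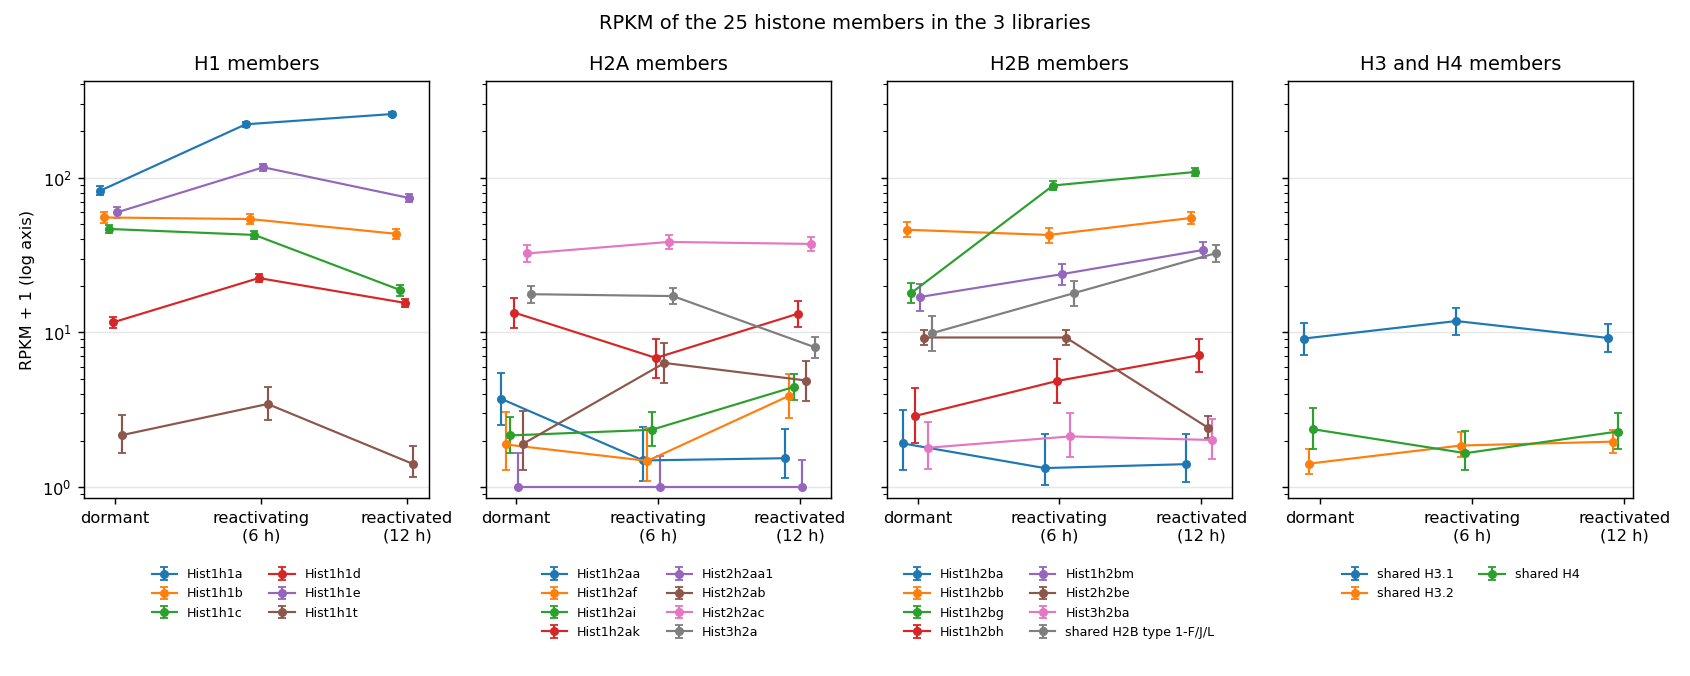
RPKM + 1 on a log axis for each of the 25 members in the dormant, reactivating (6 h) and reactivated (12 h) libraries, in panels by histone type, with exact 95% Poisson intervals that cover counting error only. Hist1h2bg, Hist2h2ab and Hist1h1a climb most by 6 h, and Hist1h1c, Hist3h2a and Hist2h2be drop between 6 h and 12 h.

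Linker histone H1 was the most abundant type, with 251, 454 and 404 summed RPKM in dormant, reactivating and reactivated embryos. Its exon reads per total were 1.69 times the dormant value at 6 h (1.62 to 1.76) and 1.40 times at 12 h (1.35 to 1.46). The 5 somatic H1 genes did not move together, and 1 of them carried most of the gain.

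Hist1h1a (ENSMUSG00000049539, chr13:23763666-23764406) encodes a somatic H1 subtype. It had 81.1 RPKM in dormant, 219.7 in reactivating and 256 in reactivated embryos, from 855, 2575 and 3629 reads. It was 2.71 times higher at 6 h (2.51 to 2.93, log2 difference 1.43) and 3.16 times higher at 12 h (2.93 to 3.41, log2 difference 1.65). None of the 50-base words of its M21 transcript occurred in another gene, so that reads could be assigned to it without a near-identical copy.

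Hist1h1e (ENSMUSG00000051627), another somatic H1, had 58.7, 115 and 72.8 RPKM in dormant, reactivating and reactivated embryos. Hist1h1d (ENSMUSG00000052565) had 10.6, 21.4 and 14.5 RPKM in the same order. Both were highest at 6 h, and both fell just short of the size threshold there, with log2 differences of 0.96 and 0.95. Their ratios of reads were 1.97 (1.79 to 2.17) for Hist1h1e and 2.02 (1.81 to 2.27) for Hist1h1d. At 12 h the log2 differences from dormant were 0.31 and 0.42, and neither passed the rule. Of the 50-base words of the Hist1h1e transcript, 32.0% also occurred in other genes, most of them in the overlapping model of Hist1h2be.

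Hist1h1b (ENSMUSG00000058773) had 54.2, 52.9 and 42.3 RPKM and passed the rule in no comparison. Hist1h1c (ENSMUSG00000036181, chr13:23738808-23740367) went the other way from Hist1h1a. It had 45.6 RPKM in dormant, 41.6 in reactivating and 17.8 in reactivated embryos, from 1004, 1018 and 526 reads. It was 0.390 times the dormant level at 12 h (0.350 to 0.433, log2 difference -1.31), and 0.427 times the level at 6 h (0.384 to 0.475). Hist1h1t, the testis form of H1, was low in each library, with 1.17, 2.45 and 0.41 RPKM from 15, 35 and 7 reads.

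Hist1h1a therefore took a growing share of the H1 level, 32.2%, 48.4% and 63.4% of the summed H1 RPKM, while that of Hist1h1c was 18.1%, 9.17% and 4.40%. The size of these shares depended on the gene models. The deposited exon length of Hist1h1c was 1560 bases and that of Hist1h1d 2964, against 725 and 776 for their RefSeq transcripts. With reads per RefSeq length, Hist1h1a made up 24.8%, 39.7% and 55.8% of H1, and Hist1h1c 29.9%, 16.1% and 8.31%. On that scale Hist1h1c was the most abundant H1 in dormant embryos, at 98.1 on the RPKM scale with RefSeq length, against 81.3 for Hist1h1a. That scale keeps every read of the longer deposited exons, also any outside the RefSeq transcript. It can therefore overstate Hist1h1c and Hist1h1d, and the rank in dormant embryos is uncertain. Hist1h1a was the most abundant after E2 on either scale, at 220.3 against 89.5 for Hist1h1c at 6 h and 257 against 38.2 at 12 h.

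**Figure D2:**
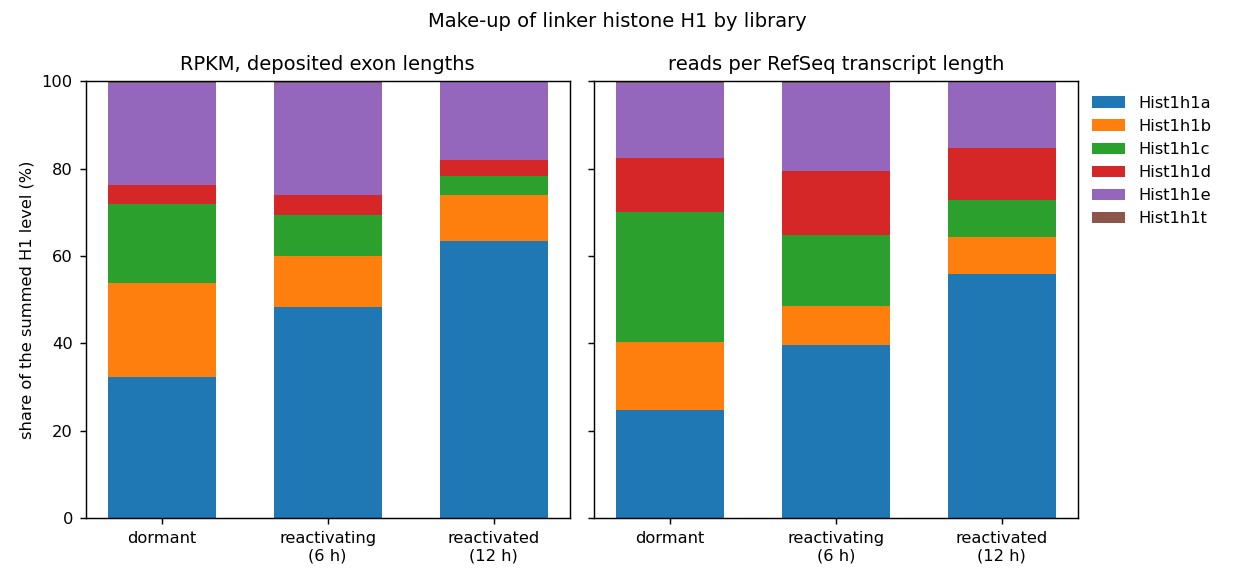
Share of the summed H1 level in percent for each of the 6 H1 genes in the dormant, reactivating and reactivated libraries, from deposited RPKM (left) and from reads per RefSeq transcript length (right). The Hist1h1a share is larger at each later state in both panels, and that of Hist1h1c smaller. The right panel keeps all reads of the deposited exons and can overstate Hist1h1c and Hist1h1d.

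Of the core histones, H2B had the largest ratio to dormant embryos at 12 h, and the row of Hist1h2bg carried most of it. The summed H2B level was 98.7, 183 and 235 RPKM over 8 rows in dormant, reactivating and reactivated embryos. Reads per total were 1.84 times the dormant value at 6 h (1.70 to 2.00) and 2.11 times at 12 h (1.95 to 2.28). Without the row of Hist1h2bg, left out after its values were seen, they were 1.11 times at 6 h (1.0004 to 1.23) and 1.17 times at 12 h (1.06 to 1.29), and the summed level was 94.9 RPKM in reactivating, 127 RPKM in reactivated and 81.7 RPKM in dormant embryos.

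The row of Hist1h2bg (ENSMUSG00000058385, chr13:23571396-23572013) led the type. It had 17.0 RPKM in dormant, 87.8 in reactivating and 108 in reactivated embryos, from 154, 886 and 1314 reads. It was 5.18 times higher at 6 h (4.36 to 6.19, log2 difference 2.31) and 6.35 times higher at 12 h (5.37 to 7.55, log2 difference 2.60). The deposited row lists 4 histone symbols, and 49.7% of the 50-base words of its M21 transcript also occurred in other genes. The gene that shared the most words was Hist1h2bc, whose own row had 16.6, 19.2 and 19.0 RPKM. How the authors' counting placed reads that fit several copies is not given in the sources used here, so that the value belongs to the group of copies and is uncertain for Hist1h2bg alone.

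Hist1h2bm (ENSMUSG00000058189) had 15.9, 22.8 and 33.1 RPKM in dormant, reactivating and reactivated embryos. A row that lists 4 H2B symbols and is described in the tables as H2B type 1-F/J/L (ENSMUSG00000069314) had 8.90, 17.0 and 31.5 RPKM. Both were highest at 12 h, at 2.08 times (1.63 to 2.67) and 3.54 times (2.61 to 4.89) the dormant level. Hist1h2bh (ENSMUSG00000064168) was lower throughout, at 1.89, 3.86 and 6.12 RPKM, and was 3.25 times the dormant level at 12 h (1.66 to 6.93). These 3 IDs are not in M21. RefSeq (GRCm38.p6) places the promoters of Hist1h2bm and Hist1h2bh at chr13:21721794-21722043 (plus) and chr13:23543445-23543694 (minus), and the shared row is on chromosome 13 in the tables.

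Hist1h2bb (ENSMUSG00000075031), the most abundant H2B row in dormant embryos, had 45.0, 41.6 and 53.8 RPKM and passed the rule in no comparison. Hist2h2be (ENSMUSG00000068854, chr3:96221119-96223738), from the smaller cluster on chromosome 3, was the H2B gene that was lower at 12 h. It had 8.27, 8.27 and 1.43 RPKM from 232, 258 and 54 reads, so that dormant and reactivating embryos were alike and the reactivated library stood apart. The ratio was 0.173 at 12 h against dormant (0.126 to 0.234, log2 difference -1.93), and no 50-base word of its transcript occurred in another gene. The other 2 H2B rows, Hist3h2ba and the testis gene Hist1h2ba, stayed between 0.33 and 1.13 RPKM, with at most 12 reads in a library.

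**Figure D3:**
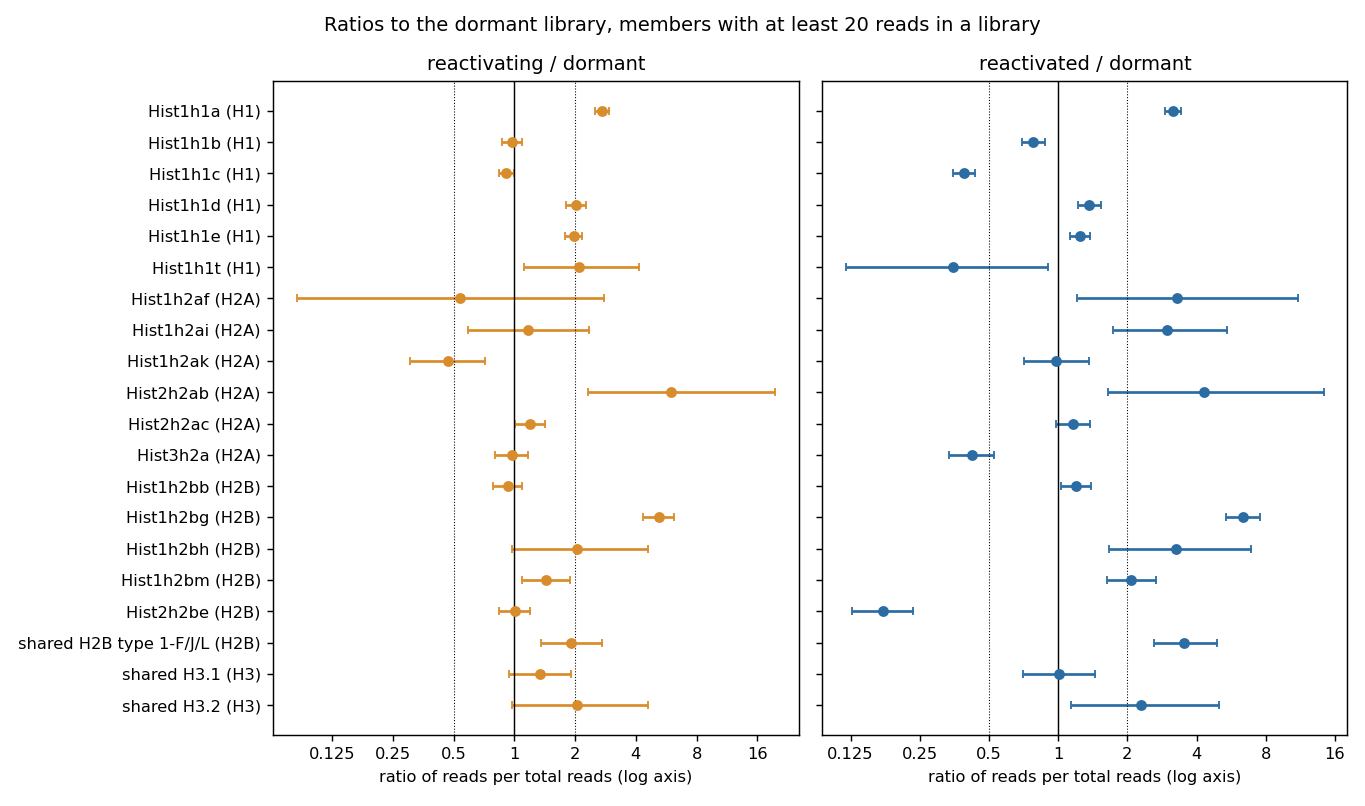
Ratio of reads per total reads to the dormant library on a log axis for the 20 members with at least 20 exon reads in a library, at 6 h (left) and 12 h (right), with exact 95% binomial intervals for counting error. The dotted lines mark ratios of 0.5 and 2. Hist1h2bg, Hist1h1a, Hist2h2ab, Hist1h2bh and the shared H3.2 row lie to the right of 2 in both panels. Hist1h1c, Hist1h1t, Hist3h2a and Hist2h2be lie left of 0.5 at 12 h. The intervals of Hist1h2bh and the shared H3.2 row are wide at 6 h, at 0.971 to 4.61 each.

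The summed H2A level did not follow that of H2B, its partner in the nucleosome. In 4 of the 8 H2A rows over 50% of the 50-base words occurred in other genes, against 0 of 5 H2B rows with an M21 transcript. Among those 5, Hist1h2bg was just under that limit at 49.7%, and Hist1h2bm, Hist1h2bh and the shared H2B row have no M21 transcript. How reads that fit several copies were counted is not given, so that the H2A and H2B sums are both uncertain. The summed level was 66.1, 67.1 and 66.3 RPKM over 8 rows in dormant, reactivating and reactivated embryos. Reads per total were 1.03 times the dormant value at 6 h (0.914 to 1.15) and 0.926 times at 12 h (0.828 to 1.04), and both intervals include 1, although the spread between libraries of 1 state is unknown.

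Hist2h2ac (ENSMUSG00000068855, chr3:96220361-96220880) was the most abundant H2A gene, with 31.3, 37.4 and 36.3 RPKM. Hist3h2a (ENSMUSG00000078851, chr11:58954685-58956830) had 16.7, 16.2 and 7.02 RPKM from 217, 234 and 123 reads. As with Hist2h2be, the dormant and reactivating libraries were alike, and the reactivated one was at 0.422 times the dormant level (0.335 to 0.528, log2 difference -1.14). Hist1h2ak (ENSMUSG00000063021) had 12.4, 5.84 and 12.2 RPKM, and at 6 h was just short of the threshold with a log2 difference of -0.97.

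Hist2h2ab (ENSMUSG00000063689, chr3:96219865-96220308) had 0.90, 5.35 and 3.89 RPKM from only 5, 33 and 29 reads. It was called higher at 6 h and at 12 h, with wide intervals of 2.30 to 19.5 and 1.65 to 14.3. More reads lay on its opposite strand than on its own in dormant and reactivating embryos, with 27, 50 and 15 opposite-strand reads, or 84.4%, 60.2% and 34.1% of the reads on both strands. In M21 Hist2h2ac ends on that strand right beside it. The share of opposite-strand reads over all members was 0.893%, 0.688% and 0.576% of opposite-strand plus exon reads. Over all genes it was 3.81%, 4.71% and 4.83%, with intron reads also in the denominator. The median share was 0% in every library among genes with no intron and at least 20 reads, so that a low share was not particular to the members. Among members with at least 20 reads on both strands in a library, the next largest shares belonged to Hist3h2a (4.65%), Hist1h2ai (2.86%), Hist2h2be (1.82%) and the shared H2B row (1.82%).

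The remaining H2A rows were low. Hist1h2ai, a row that lists 9 histone symbols, had 1.16, 1.35 and 3.44 RPKM from 17, 22 and 68 reads. Hist1h2af had 0.89, 0.48 and 2.90 RPKM from 5, 3 and 22 reads. Each was called higher at 12 h, but 90.1% and 79.7% of the 50-base words of their transcripts occurred in other genes, so that these values are uncertain. Hist1h2aa, a testis gene, had 2.72, 0.49 and 0.54 RPKM.

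The H3 and H4 genes were low under their deposited symbols. The H3 row described as H3.1 (ENSMUSG00000069312, 4 symbols) had 8.13, 10.8 and 8.20 RPKM, and the row described as H3.2 (ENSMUSG00000059309, 8 symbols) had 0.42, 0.86 and 0.97 RPKM. The single H4 row (ENSMUSG00000060832, 12 histone symbols) had 1.37, 0.66 and 1.29 RPKM from 15, 8 and 19 reads. None of these passed the rule, and the H4 counts leave a wide interval of 0.176 to 1.21 times the dormant level at 6 h.

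**Figure D4:**
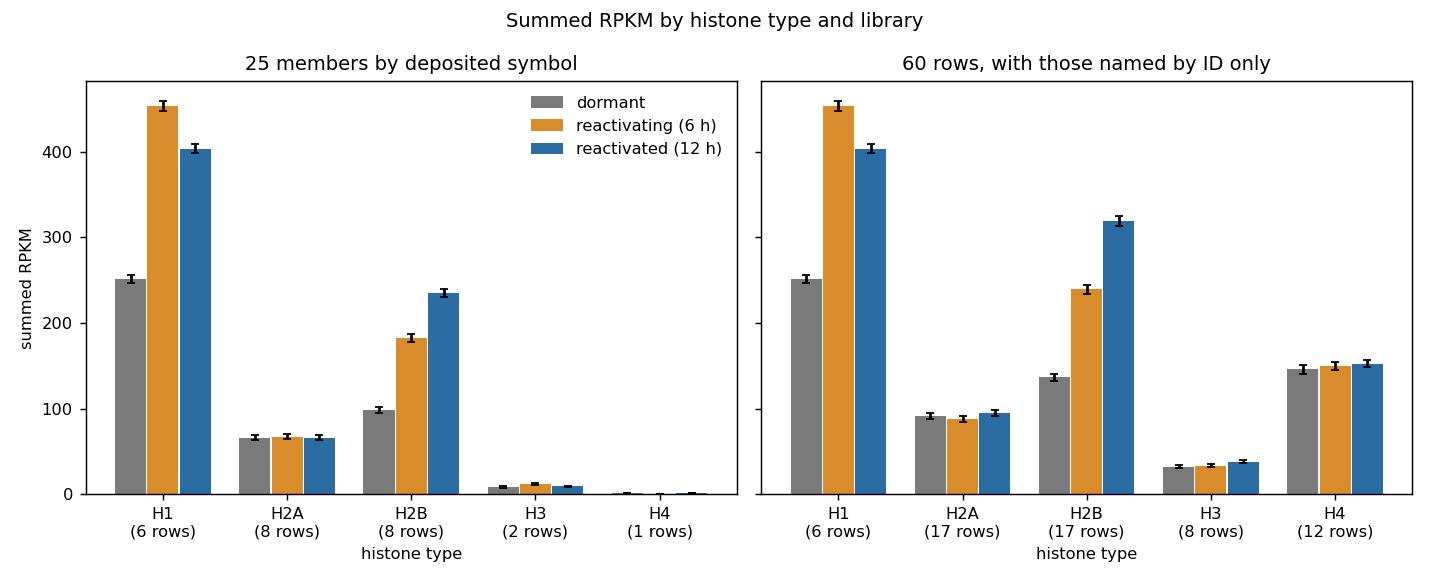
Summed RPKM by histone type in the dormant, reactivating and reactivated libraries, for the 25 members (left) and for all 60 histone rows (right), with bars of 1 standard error from counting alone. H1 and H2B are higher in both libraries after E2 in both panels, and H2A, H3 and H4 are near level when all rows are summed. The H4 sum on the right includes the row that M21 calls Hist1h4j, which lies on another chromosome in the tables than in M21.

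The tables held 35 further rows with no histone symbol whose Ensembl ID GENCODE M21 names as a replication-dependent histone, comprising 9 H2A, 9 H2B, 6 H3 and 11 H4 rows. They fall outside the members and are given because most H3 and H4 reads were in them. The stem-loop pattern was present in 26 of the 35. With them, H4 summed to 146, 150.0 and 152 RPKM and H3 to 32.2, 33.6 and 37.9 RPKM in dormant, reactivating and reactivated embryos. The H4 sums include the row that M21 calls Hist1h4j, with 22.8, 48.7 and 24.5 RPKM, whose place in the genome is in doubt. That the H4 sum was level at 6 h depends on this row, and the sum without it was not computed. H2A summed to 91.3, 87.8 and 94.7 RPKM, and H2B to 137, 239 and 319 RPKM. H2B reads per total were 2.09 times the dormant value at 12 h (1.96 to 2.23), and 1.47 times (1.36 to 1.58) without the row of Hist1h2bg. H4 was at 1.04 times (0.958 to 1.14) and H2A at 0.977 times (0.886 to 1.08). H3 was at 1.23 times (1.05 to 1.44).

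Single H4 rows differed in direction. Hist1h4d had 62.0, 36.2 and 43.5 RPKM and passed the rule in no comparison. Hist1h4c had 20.6, 8.71 and 9.87 RPKM, and was lower by the rule at 6 h but not at 12 h. Hist1h4n, in contrast, had 3.13, 15.3 and 20.5 RPKM, and was 4.88 times the dormant level at 6 h (2.97 to 8.43) and 6.54 times at 12 h (4.06 to 11.1). Of the words of the Hist1h4n transcript 85.6% occurred in other genes, so that the value of Hist1h4n is uncertain. For Hist1h4d the share was 10.2%, over an M21 transcript of 1138 bases. Its deposited exon length was 423 bases, so that the share over the counted bases is not known. The ID that M21 calls Hist1h4j, which had 22.8, 48.7 and 24.5 RPKM, lies on another chromosome in the tables than in M21. Among the H2B rows Hist1h2bk had 11.7, 25.05 and 49.4 RPKM, and 4.22 times the dormant level at 12 h (3.34 to 5.38). Its value is uncertain too, since 74.2% of its 50-base words occurred in other genes and 16.7% of its dormant reads lay on the opposite strand. These examples were chosen after their values were seen.

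H2A and H2B genes often lie head to head and share the DNA between their starts, and M21 placed 9 such pairs within 1000 bases among the 60 rows. At 12 h against dormant embryos 1 partner passed the rule and the other did not in 6 of the 9 pairs, and neither passed in 3. Over all genes 5.27% were higher and 7.66% lower. The pseudogene Hist3h2bb-ps and Hist1h2ba were below the minimum at 6 h and 12 h, so that their pairs could not pass together. Low counts limited Hist1h2bf too, with 13 reads in reactivated and 9 in dormant embryos. How reads that fit several copies were counted is not given. Of the 50-base words, 90.7% in Hist1h2ah and 43.2% in Hist1h2ae occurred in other genes, against 38.6% in Hist2h2ac and 0% in Hist2h2be. The part of read placement in the differences between partners was not tested. The count of 6 therefore does not measure how often partners differ. At 6 h both passed in 1 pair, in opposite directions, 1 partner in 2 pairs and neither in 6. The shares over all genes were 2.68% higher and 3.07% lower. Hist1h2bg, with 87.8 RPKM in reactivating and 17.0 RPKM in dormant embryos, lies 175 bases from Hist1h2ae, with 1.11 and 3.39 RPKM from 8 and 22 reads. Hist1h2bk, with 49.4 RPKM in reactivated and 11.7 in dormant embryos, lies 301 bases from Hist1h2ah, with 0.78 and 1.05 RPKM from 6 reads each. On chromosome 3, Hist2h2be, at 1.43 RPKM in reactivated and 8.27 RPKM in dormant embryos, lies 238 bases from Hist2h2ac, at 36.3 and 31.3 RPKM. The pair of Hist1h2ac and Hist1h2bc was level, with 12.2 and 19.0 RPKM in reactivated and 11.5 and 16.6 RPKM in dormant embryos.

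By genome cluster, the 19 members of the large Hist1 cluster on chromosome 13 summed to 368, 648 and 666 RPKM in dormant, reactivating and reactivated embryos. The 4 members of the Hist2 cluster on chromosome 3 summed to 40.5, 51.0 and 41.6 RPKM. The 2 Hist3 members on chromosome 11 summed to 17.4, 17.3 and 8.04 RPKM. At 12 h the Hist1 members had 1.60 times the dormant reads per total (1.54 to 1.66). The ratio was 0.702 (0.615 to 0.802) for Hist2 and 0.448 (0.359 to 0.557) for Hist3. Few rows set these sums. Hist1h1a had 81.1 RPKM in dormant and 256 in reactivated embryos, and the row of Hist1h2bg 17.0 and 108. In Hist2 the fall lay in Hist2h2be, with 232 dormant and 54 reactivated reads, and the summed RPKM was 1.03 times the dormant value. At 6 h Hist2 reads per total were 1.15 times the dormant value (1.02 to 1.30).

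Of 27 measured genes that act in making and processing histone mRNA, 1 was higher and none lower at 6 h, against 2.68% and 3.07% of all genes. At 12 h against dormant embryos 2 were higher and 1 lower, against 5.27% and 7.66%, which is near the share over all genes. Slbp, which binds the stem-loop, had 20.1, 19.9 and 17.8 RPKM in dormant, reactivating and reactivated embryos, and Npat, the cyclin E target that activates histone genes, had 7.67, 8.34 and 9.77 RPKM. Casp8ap2, a partner of Npat in the histone locus body, had 7.10, 6.89 and 10.9 RPKM, and Lsm11, of the U7 particle that cleaves the histone message, had 2.71, 4.10 and 2.15 RPKM. None of these 4 passed the rule. Snrpf, a core protein of spliceosomal and U7 particles, was higher in both states after E2, with 1.65, 6.99 and 9.45 RPKM. E2f3, an activator of S-phase genes, was higher at 12 h with 1.11, 1.31 and 4.04 RPKM, and Snrpg was lower with 1.86, 0.84 and 0.41 RPKM.

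Of 27 listed S-phase genes none was higher or lower at 6 h, against 2.68% and 3.07% of all genes, so that the count at 6 h is near the background. At 12 h 11 were higher and none lower, against 5.27% and 7.66%, with summed levels of 399, 416 and 709 RPKM. Their median log2 differences from dormant were 0.059 at 6 h and 0.91 at 12 h. For the H1 members that reached the minimum the medians were 0.81 at 6 h and -0.022 at 12 h. They were 0.49 and 1.01 for such H2B members, and 0.041 and 0.21 for H2A. The S-phase cyclin genes Ccne1 and Ccne2 had 2.59, 3.02 and 17.5 RPKM and 2.07, 2.15 and 11.8 RPKM. Hist1h1a and Hist1h2bg, 2 of the 3 members that were higher at 6 h, differed from dormant by log2 1.43 and 2.31 at 6 h, and by 1.65 and 2.60 at 12 h. Most members did not pass the rule at 6 h, as 17 of the 21 were neither higher nor lower. Among these, Hist1h1e and Hist1h1d came close, at log2 0.96 and 0.95. The later H2B rows Hist1h2bm and the shared H2B row first passed the rule at 12 h. The other 9 were Cdc6 and Mcm5, which act in origin licensing, Cdc45, which joins the Mcm helicase when origins fire, the nucleotide reductase genes Rrm1 and Rrm2, and Ccna2, Cdk1, Fen1 and Top2a, and their log2 differences at 12 h were between 1.05 and 1.78. The timing was not tested, as each state was 1 library.

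**Figure D5:**
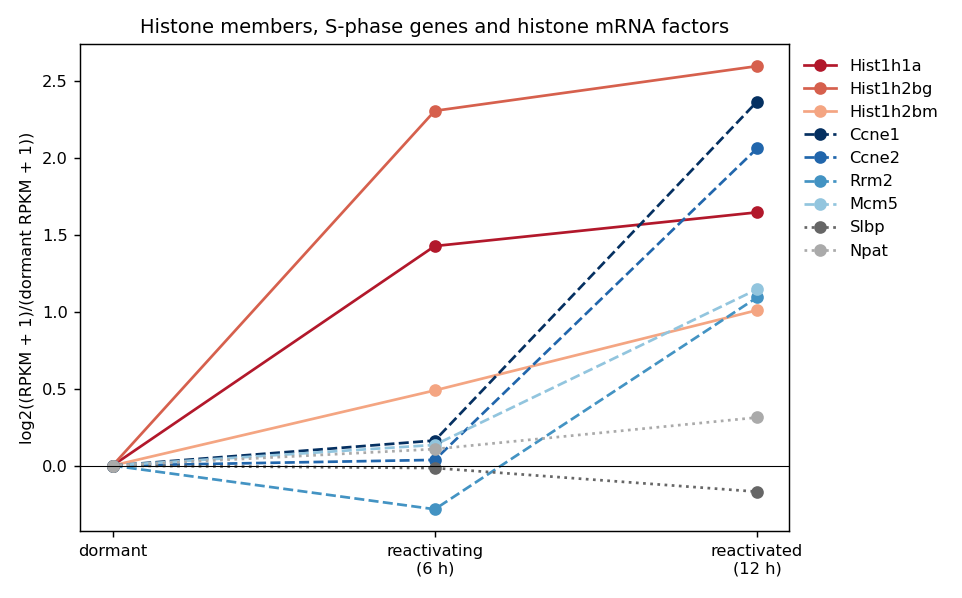
Log2((RPKM + 1)/(dormant RPKM + 1)) of 3 histone members (solid lines), 4 S-phase genes (dashed) and the histone mRNA factors Slbp and Npat (dotted) in the dormant, reactivating (6 h) and reactivated (12 h) libraries. Hist1h1a and Hist1h2bg lie above 1 already at 6 h, where Ccne1 and Ccne2 lie at 0.16 and 0.037.

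Of 26 measured histone chaperone and deposition genes, none passed the rule at 6 h, against 2.68% higher and 3.07% lower of all genes, which is near the background. At 12 h against dormant embryos 5 were higher and none lower, against 5.27% and 7.66%. Asf1b, a chaperone of new H3 and H4, had 2.22, 3.35 and 9.69 RPKM, and Hat1, which acetylates new H4, had 18.3, 24.5 and 39.3 RPKM. The others were Rbbp4 (37.1, 53.8 and 78.3 RPKM), Anp32e (8.02, 10.7 and 23.2 RPKM) and Set (5.79, 8.37 and 12.9 RPKM). Between 12 h and 6 h, Asf1b and Anp32e were higher, by log2 1.30 and 1.05, against 3.82% of all genes. Ubn1, of the complex that deposits replication-independent H3, was the 1 lower gene, against 7.63%, with 5.22 RPKM in reactivated and 11.9 RPKM in reactivating embryos.

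None of the 8 measured replication-independent histone variant genes passed the rule in any comparison. H3f3b, an H3 variant gene with introns and a polyadenylated message, had 48.3, 55.2 and 54.6 RPKM. H2afz and H3f3a were under 1 RPKM in every library, at 0.66 to 0.79 and 0.07 to 0.32 RPKM. Both have many processed copies in the genome, so that these values are uncertain.

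Some markers of other cell types were lower at 12 h, in the library in which Hist1h1c, Hist3h2a and Hist2h2be were lower, and others were not. The 5 uterine epithelium markers summed to 69.8, 71.0 and 25.5 RPKM in dormant, reactivating and reactivated embryos, and 2 of 3 that reached the minimum were lower against dormant. Lif and Wfdc2 carried most of that sum, and the estrogen-induced Ltf had 0.28, 0.91 and 0.94 RPKM, with reads per total 3.31 times the dormant value at 12 h (1.70 to 7.07). The 5 immune cell markers summed to 17.9, 14.9 and 4.96 RPKM, mostly Laptm5, with the pan-leukocyte Ptprc at 0.09, 0.27 and 0.20 RPKM. All 3 immune markers that reached the minimum were lower at 12 h against dormant. Of 7 trophectoderm markers Cdx2 and Gata3 were lower at 12 h and Elf5 was higher. The part of these in the histone values was not tested.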

How the data were processed

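Read counts per gene were deposited by the authors in 1 table per library, and per the file headers they are split into exon, intron, junction and opposite-strand reads. The deposited RPKM is, per the file headers, exon reads scaled to exon length and library total. It followed from the reads with totals of 14118723, 15687239 and 18982195 in the dormant, reactivating and reactivated libraries. The build is GRCm38, per the submitters' processing notes. Not given in the sources used here are the aligner, the counting tool, the gene annotation and how reads with several placements were treated.

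Members, lists and the naming rule were chosen with earlier results of these data known. Named were the 3 most abundant members of each type, every member past the size rule with at least 5 RPKM, the 5 with the largest opposite-strand share at 20 or more reads, list genes past the size rule and 9 genes by name. Other low members past the rule are named to complete the counts. Ratios are reads over library totals with exact binomial intervals, and RPKM intervals are exact Poisson. GENCODE M21 gave coordinates and 50-base words, and held 84.7% of all IDs and 19 of the 25 members. Of the listed genes, Snrpe and H1f0 were not matched by symbol. The size rule and the ratio intervals were tested on simulated counts. Software was Python 3.11.15, pandas 2.3.3, NumPy 2.4.6, SciPy 1.17.1 and matplotlib 3.10.9. A floor of 3 reads at 1 kilobase equals 0.212, 0.191 and 0.158 RPKM in the dormant, reactivating and reactivated libraries.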

Additional observations from a re-analysis of the deposited data

Results flagged for a closer look

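Reads that the tables list in a separate column headed Double, which the RPKM does not count, were present over the 25 members in each library, with 32 in dormant, 75 in reactivating and 53 in reactivated embryos. They stood out because they lie outside the exon reads on which every comparison rests, and because each is above the limit of 3 reads that a count of 0 allows. What the column holds beyond its header is not given in the sources used here.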

How the results depend on the processing

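The summed level after E2 stayed above that of dormant embryos under all 8 alternatives at 6 h and at 12 h. At 6 h the log2 ratio of 0.75 became 0.52 without Hist1h1a, 0.65 with upper-quartile scaling, 0.68 with median-ratio scaling, 0.55 over all 60 rows and 0.80 over the 15 members with at most 50% of 50-base words shared. At 12 h against dormant the 0.75 became 0.41 without Hist1h1a, 0.50 as a share of exon reads, 0.84 with median-ratio scaling and 0.62 over all 60 rows. Reactivated against reactivating was near 0 (-0.000504) and changed sign with the setting, at -0.11 without Hist1h1a, -0.21 as a share of exon reads, 0.10 with upper-quartile scaling, 0.15 with median-ratio scaling, 0.064 over all 60 rows and -0.083 over the 15 members.

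Counts of higher members at 6 h were 5 of 21 tested with a pseudocount of 0.1, in place of 3 of 21 (14.3%). Over all 60 rows they were 6 of 47 (12.8%). Counts of lower members there were 2 of 21 with that pseudocount, with upper-quartile and with median-ratio scaling, in place of 1 of 21. They were 5 of 47 over all 60 rows, 0 of 15 with a minimum of 5 RPKM and 0 of 19 with CPM. At 12 h against dormant the 8 higher of 22 (36.4%) became 5 of 15 with a minimum of 5 RPKM. They were 15 of 51 (29.4%) over all 60 rows and 3 of 14 over the 15 members. The share over all genes was not computed for the other pseudocount, minimum levels or scalings. Between 12 h and 6 h the 1 higher member of 21 tested became 3 of 21 with a pseudocount of 0.1. The count was 2 of 20 with CPM, 2 of 21 with upper-quartile scaling and 4 of 22 with median-ratio scaling. It was 4 of 47 over all 60 rows, 0 of 16 with a minimum of 5 RPKM and 0 of 13 over the 15 members. The share of higher among called members in that comparison was 20% as deposited and 57.1% with median-ratio scaling, which moves the median of all genes to 0.012. Counts of lower members at 12 h stayed within 1.5 times under every alternative. The alternatives with all 60 rows, with the 15 members, with the Double reads and without the row of Hist1h2bg were chosen after seeing the data. Beyond what each setting leaves out or rescales, the cause was not tested. No paired analysis was possible because each state was 1 library, and for the same reason no replicate could be left out.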
